A study of Homo sapiens with 6 samples.

Results

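The 87 genes described here are the H/ACA small nucleolar RNAs and the small Cajal body RNAs, 70 whose symbols start with SNORA and 17 with SCARNA, out of 20667 gene symbols in each deposited table. They were chosen by the start of the symbol, with no measured value in the rule, although the group was picked with earlier results of this comparison known. The values are FPKM, in which the fragments of a gene are divided by a length and by the size of the library. They come from 6 RNA-seq libraries of U2932, a human cell line derived from a diffuse large B-cell lymphoma of the activated B-cell-like type (ABC-DLBCL). A ROCK2 KD library comes from cells that stably carry a shRNA against ROCK2, a protein kinase, and a Scr shRNA library from cells with a scrambled shRNA. There were 3 libraries in each group, numbered 1, 2 and 3, and libraries with the same number form a pair.

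All cells were U2932 cells infected with a lentivirus of the MISSION pLKO.1 type that also carried puromycin resistance and the green fluorescent protein tGFP, so the controls share the infection and the vector type with the ROCK2 KD cells. Total RNA was purified on RNeasy Plus Mini columns and Nextera libraries were made, and whether poly(A) RNA was selected in between is not given in the sources used here. The labels do not say whether the 3 libraries of a group came from separate infections or cultures. P-values here rest on the spread between these libraries, which may be technical and which limma pools in part over genes. ROCK2 itself was at 2.75, 5.35 and 1.26 FPKM in the ROCK2 KD libraries and at 4.32, 7.21 and 5.78 FPKM in the Scr shRNA libraries, lower in each pair (log2 fold change −0.82, SE 0.23, adjusted p = 0.799 with limma). The summed FPKM of 7 B cell markers was 336 to 1602 over the libraries, against 0.0902 to 0.758 for 4 T cell markers, of which CD2 was at 0 in every library, and 0.295 to 0.648 for 4 myeloid markers. EPCAM, an epithelial marker, was at 2.59 to 5.00 FPKM and the other 3 markers of its list were at 0.269 FPKM or less.

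H/ACA RNAs fold into hairpins joined by a hinge, and guide an enzyme complex of dyskerin (DKC1), NHP2, NOP10 and GAR1 to uridines that it converts to pseudouridine. SNORA genes direct this complex mostly to ribosomal RNA in the nucleolus, and SCARNA genes direct modification of spliceosomal small nuclear RNAs in Cajal bodies, some with H/ACA boxes, some with C/D boxes and some with both. In human cells most of them have no promoter of their own: they are cut out of introns of a host gene after splicing, carry no poly(A) tail, and are far shorter than an mRNA.

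The hinge holds box H, with the letters ANANNA, and the tail ends with the letters ACA a few bases before the 3′ end. The 7 members below are shown because the comparisons turn on them. SNORA81, SNORA63 and SNORA4 lie in the same host gene. SNORA70 had the highest mean FPKM after SNORA63, and SCARNA12 the highest of the SCARNA genes. SNORA5A and SNORA6 are the tested members whose groups did not overlap in FPKM. The sequences were read from GRCh37, the assembly behind hg19, 5′ to 3′ on the gene's strand. Capitals mark the ANANNA match nearest to the middle and the last ACA within 10 bases of the annotated end.

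SNORA81: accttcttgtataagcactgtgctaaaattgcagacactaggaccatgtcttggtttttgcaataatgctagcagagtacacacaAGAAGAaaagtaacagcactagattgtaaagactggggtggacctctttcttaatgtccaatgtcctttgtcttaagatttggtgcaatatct
SNORA63: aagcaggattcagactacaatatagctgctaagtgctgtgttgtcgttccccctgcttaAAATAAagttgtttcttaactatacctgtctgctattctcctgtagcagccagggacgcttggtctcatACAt
SNORA4: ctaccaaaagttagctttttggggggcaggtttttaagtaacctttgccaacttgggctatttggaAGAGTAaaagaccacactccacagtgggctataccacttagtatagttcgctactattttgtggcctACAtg
SNORA70: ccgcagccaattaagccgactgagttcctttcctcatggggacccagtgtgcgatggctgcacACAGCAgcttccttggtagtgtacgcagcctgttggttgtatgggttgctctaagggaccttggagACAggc
SNORA5A: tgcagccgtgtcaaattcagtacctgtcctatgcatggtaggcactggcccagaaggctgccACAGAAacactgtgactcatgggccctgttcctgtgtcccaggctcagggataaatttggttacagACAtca
SNORA6: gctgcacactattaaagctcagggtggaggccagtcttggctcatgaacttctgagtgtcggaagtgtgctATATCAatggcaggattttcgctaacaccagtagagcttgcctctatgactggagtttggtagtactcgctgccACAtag
SCARNA12: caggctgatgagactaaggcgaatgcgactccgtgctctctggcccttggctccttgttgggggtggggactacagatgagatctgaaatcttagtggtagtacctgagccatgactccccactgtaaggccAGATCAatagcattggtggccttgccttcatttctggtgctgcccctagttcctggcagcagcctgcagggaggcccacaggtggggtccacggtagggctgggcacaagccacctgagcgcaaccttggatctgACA

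In GENCODE 44 lifted to GRCh37, SNORA81 (chr3:186504464-186504641, plus strand), SNORA63 (chr3:186505089-186505220, plus strand) and SNORA4 (chr3:186505401-186505538, plus strand) lie in introns 7, 8 and 9 of the canonical transcript of EIF4A2, which encodes a translation initiation factor of the eIF4A family. SNORA70 (chrX:153628622-153628756, plus strand) lies in intron 5 of RPL10, a ribosomal protein gene, and SNORA6 (chr3:39449880-39450030, plus strand) in intron 2 of RPSA, another ribosomal protein gene. SNORA5A (chr7:45143948-45144081, minus strand) lies in intron 4 of TBRG4 and SCARNA12 (chr12:7076500-7076769, minus strand) in intron 6 of PHB2, which encodes a prohibitin. Each of the 7 lies within 28 to 70 bases of a canonical exon. SNORA81 had no ACA in its last 10 annotated bases. In SCARNA12 the marked ACA ends the annotated sequence, with 0 bases after it, and need not be the box.

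Over the 55 SNORA genes with a position in this annotation, ANANNA was found within 20 bases of the middle in 51 (92.7%) and ACA within the last 10 bases in 49 (89.1%), 35 of them with exactly 3 bases after it. Both were found in 45 (81.8%). The same search found both in 4 of the 55 reverse strands, in 2 windows of equal length directly after the gene (3.64%) and in 4 windows directly before it (7.27%). In the reverse strands ANANNA alone was found in 56.4%. The middle and the tail do not overlap, and a match describes the letters only.

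A host gene, meaning the gene whose span holds the whole member, was found for 83 of the 87 members, over 65 host genes. For 63 the host lies on the same strand in both GENCODE and RefSeq, and for 20 only RefSeq containment was available, with no check of the strand. SCARNA2, SNORA76C, SNORA70G and SNORA7B had no host by this rule. Of the 63, 58 lie in an intron of the host's canonical transcript and 1 overlaps a canonical exon, but 35 overlap an exon of some annotated transcript of the host, so fragments of such transcripts and of the member cannot be told apart there. Of the 7 members printed above, SNORA5A was the only one with no such overlap, so SNORA6, SNORA81, SNORA63, SNORA4, SNORA70 and SCARNA12 are uncertain in this respect. Of the 65 members with a position, 53 had every 50-base window, the read length, at 1 place only in the genome. SNORA6, SNORA5A, SNORA81, SNORA4 and SCARNA12 were among them, while 98.8% of the windows of SNORA63 and 61.6% of those of SNORA70 were at 1 place, and SNORA70 is therefore uncertain where reads were shared with its copies.

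Most members were scarcely seen. In all 6 libraries 35 of the 87 members (40.2%) were listed at 0, against 9.11% of all symbols, and 11 were above 0 in all 6 libraries, 1 of them (SCARNA13) through values of 4.07e-05 FPKM or less in 3 libraries. A further 17 members were above 0 in 1 library and 11 in 2 libraries. The number of members above 0 was 19, 27 and 32 in ROCK2 KD libraries 1, 2 and 3 and 26, 22 and 27 in Scr shRNA libraries 1, 2 and 3, so the groups overlapped. All members together made up 0.0531%, 0.0610% and 0.0596% of the summed FPKM of ROCK2 KD libraries 1, 2 and 3 and 0.0769%, 0.0387% and 0.0419% of Scr shRNA libraries 1, 2 and 3, a lower share in ROCK2 KD in pair 1 and a higher one in pairs 2 and 3. The 23 SNORD genes, box C/D small nucleolar RNAs of similar size, were at 0 in all libraries in 56.5% of cases.

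Members listed at 0 throughout included SNORA52, SNORA21, SNORA33 and SNORA65, whose hosts RPLP2, RPL23, RPS12 and RPL12 encode ribosomal proteins and had means of 513 to 1437 FPKM. In other such hosts members were seen, with 3 steps (defined below) over the 6 libraries for SNORA10 and 1 for SNORA64 in RPS2 and 1 for SNORA72 in RPL30. In RPSA, SNORA6 had 11 steps and SNORA62 had 1. SNORA70 had 13 steps in RPL10, which had a mean of 442 FPKM. SNORA56, which lies in the dyskerin gene DKC1, was also at 0 in every library while DKC1 was at 27.8 to 106 FPKM. Across the 72 members up to 204 bases with a host, the level of the host and the number of FPKM steps of the member had a Spearman correlation of 0.14, a description over members that share libraries and in part hosts. Of the 36 members with the higher host levels 22 were above 0, with 126 steps in all, and of the 36 with the lower host levels 16, with 46 steps. SNORA7A had values of 2.41e-38 and 3.19e-31 FPKM in ROCK2 KD library 2 and Scr shRNA library 2, far under 1 step, and these were read as 0 in the counts of steps.

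Within a library the FPKM of the short members took only certain values. At 133 bases, for example, SNORA84, SNORA9 and SNORA10 were all at 9.61 FPKM in ROCK2 KD library 1, and SNORA84, SNORA9 and SNORA76C at 15.5 FPKM in Scr shRNA library 2. Over members of the same length in the same library, 32 of 38 values were whole multiples, within 1%, of the smallest one. Of the 38, 5 were values of SCARNA10 against SCARNA7, both 330 bases long, of which 2 (ratios of 4.0 and 2.0 in library 2 of ROCK2 KD and Scr shRNA) were whole and 3 (1.17, 1.25 and 2.2) were not. A curve with 13 fitted parameters, over annotated length and library, gave the worth of 1 such step for the 75 members up to 204 bases, and 97 of their 98 values above 0 lay within 5% of a whole number of steps. The exception was SNORA25 in Scr shRNA library 1, at 1.11 steps. A step is taken here as 1 fragment, which the tables do not state.

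**Figure D1:**
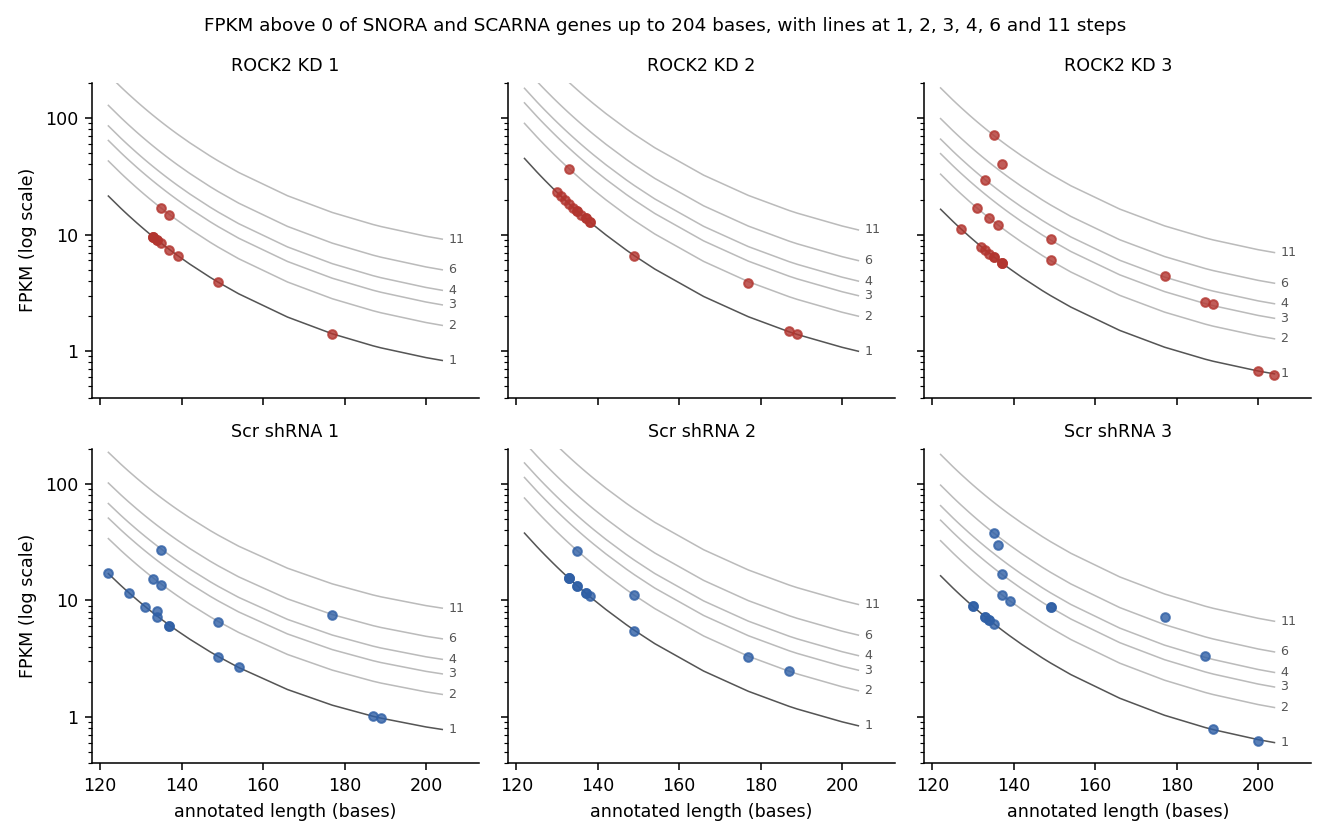
FPKM (log scale) of each SNORA and SCARNA gene up to 204 bases against its annotated length in bases, 1 panel per library and only values above 0, with lines at 1, 2, 3, 4, 6 and 11 steps. Of the 98 points, 97 lie within 5% of a whole number of steps (values of 5 and 7 steps have no line drawn), and 65 are nearest to the lowest line, at 1 step, the exception at 1.11 steps among them.

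The step was large and depended on the length and the library. At 133 bases 1 step was worth 9.59, 18.4 and 7.38 FPKM in ROCK2 KD libraries 1, 2 and 3 and 7.81, 15.4 and 7.22 FPKM in Scr shRNA libraries 1, 2 and 3. At 189 bases, the length of SNORA23, it was worth 0.778 to 1.39 FPKM, a steeper fall than division by the annotated length would give. The same number of steps therefore gave a higher FPKM in the ROCK2 KD library of each pair, by a log2 of 0.30, 0.25 and 0.03 at 133 bases in pairs 1, 2 and 3. Of the 98 values above 0, 65 (66.3%) were 1 step and 82 were 1 or 2 steps, 60 of the 65 were at 1 FPKM or more, and the highest value was 11 steps. For counting error alone, an exact Poisson 95% interval runs from 0.0253 to 5.57 for 1 fragment and from 5.49 to 19.7 for 11.

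The totals in steps went in opposite directions between pairs. The 75 members together had 87 steps in the ROCK2 KD libraries (14, 19 and 54) and 88 in the Scr shRNA libraries (27, 17 and 44). Without SNORA63, the member with the most steps in any library, these were 13, 18 and 43 steps against 23, 15 and 43. In pair 1 the Scr shRNA library had more, and in pairs 2 and 3 the ROCK2 KD library had as many or more.

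**Figure D2:**
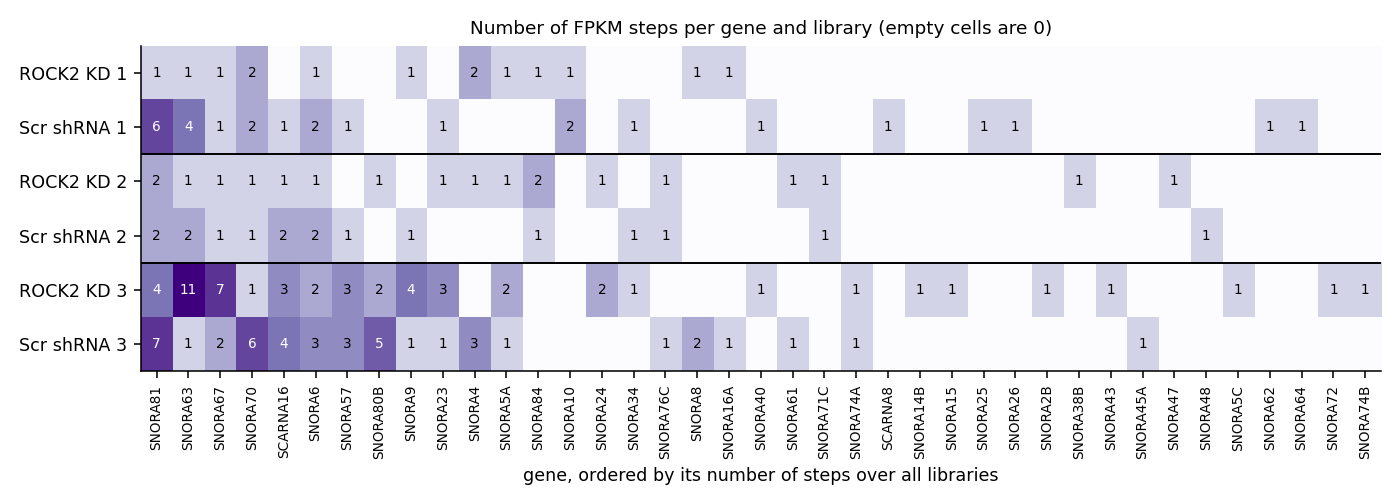
Number of FPKM steps of each of the 39 SNORA and SCARNA genes up to 204 bases with at least 1 step, by library, with the 2 libraries of each pair in adjacent rows and darker cells for more steps. Most filled cells hold 1, and the largest values are 11 for SNORA63 and 7 for SNORA67 in ROCK2 KD library 3 and 7 for SNORA81 in Scr shRNA library 3.

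For the comparison of ROCK2 KD with Scr shRNA, FPKM were scaled between libraries and tested with limma on log2(scaled FPKM + 1), with the pair as a block, over the 10526 genes at 1 FPKM or more in at least 3 libraries. A fold change on this scale understates the change of a low gene. Only 17 of the 87 members entered (19.5%, against 50.9% of all symbols), 13 SNORA and 4 SCARNA, and 14 of these are no longer than 204 bases, so that a few fragments sufficed to enter. No member differed at an adjusted p of 0.05, and neither did any of the 10526 genes (0.0% called), while 576 genes (5.47%) and 6 of the 17 members had an unadjusted p under 0.05. Of these 6, SNORA5A, SNORA67 and SNORA84 were higher in ROCK2 KD (3.07% of all genes) and SCARNA16, SNORA57 and SNORA6 lower (2.4% of all genes). Limma draws the spread of each gene toward that of other genes. The SD of the 3 pair differences had a median of 0.18 over all genes and 1.55 over the 17 members. For SNORA5A, SNORA67, SNORA84, SCARNA16 and SNORA57 the SE and p are therefore smaller than their own 3 pairs would give. The median log2 fold change was −0.25 over the 17 members, with values from −1.63 to 2.83, and −0.01 over all genes tested. The median over members ran from −0.57 (without replicate 2) to −0.06 (without replicate 3) when 1 replicate was left out, and was 0.03 over the 52 members tested without the filter and −0.50 over the 6 at 1 FPKM or more in every library. The log2 fold change was above 0 for 8 of the 17 members (48.0% of all genes) and below 0 for 9 (52.0%).

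**Figure D3:**
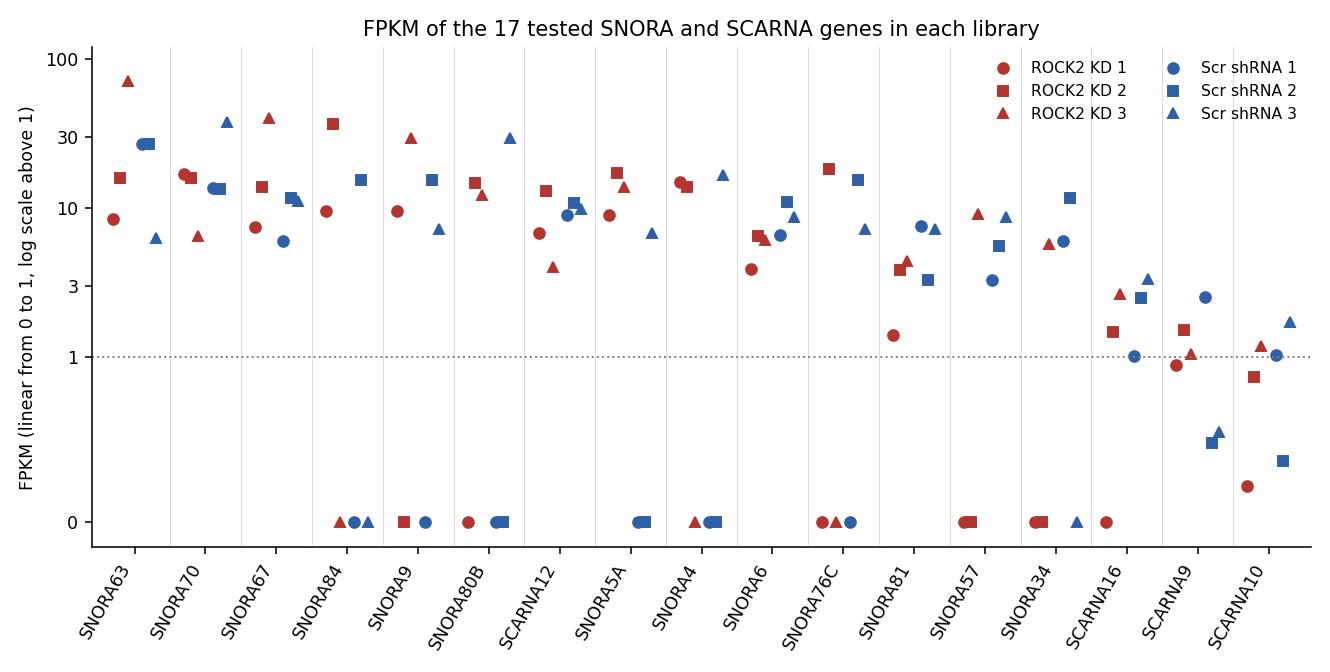
FPKM of the 17 tested SNORA and SCARNA genes, ordered by mean FPKM, in each library, on an axis that is linear from 0 to 1 and logarithmic above 1, with the dotted line at the 1 FPKM needed to be tested. The ROCK2 KD and Scr shRNA points of SNORA5A and SNORA6 do not overlap in FPKM, though they meet in steps, and 9 of the 17 genes have at least 1 library at 0.

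SNORA5A, which lies in TBRG4, was the member with the largest positive difference. It was at 8.99, 17.1 and 13.8 FPKM in ROCK2 KD libraries 1, 2 and 3 and at 0, 0 and 6.75 FPKM in Scr shRNA libraries 1, 2 and 3, a mean of 13.3 ± 4.07 against 2.25 ± 3.90 (SD, n = 3 each). All ROCK2 KD libraries were above all Scr shRNA libraries, as for 0.903% of all genes. The log2 fold change was 2.83 (SE 0.53, adjusted p = 0.752 with limma), the largest of all genes tested with the pseudocount of 1. With 2 libraries at 0 its size depends on the pseudocount, and it was 5.02 with a pseudocount of 0.1 and 0.96 with 10. In steps these values were 1, 1 and 2 against 0, 0 and 1, a difference of 1 step in every pair. The groups met at 1 step and were apart only in FPKM.

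SNORA6, in an intron of RPSA, was the other tested member whose groups did not overlap in FPKM. It was at 3.91, 6.52 and 6.08 FPKM in the ROCK2 KD libraries and at 6.58, 11.03 and 8.74 FPKM in the Scr shRNA libraries, a mean of 5.503 ± 1.40 against 8.78 ± 2.23 (SD, n = 3 each). Every ROCK2 KD library was below every Scr shRNA library, as for 0.846% of all genes, with a log2 fold change of −0.60 (SE 0.11, adjusted p = 0.752 with limma). The 3 pair differences, −0.65, −0.65 and −0.50, were the closest together of any member tested. In steps the values were 1, 1 and 2 against 2, 2 and 3, again 1 step in every pair, and the groups met at 2 steps. After ComBat on the replicate number and without the block, 294 genes (2.79%) passed an adjusted p of 0.05, and SNORA6 was the only member to do so (log2 fold change −0.46, adjusted p = 0.0220 with limma). SNORA62, the other member in RPSA, was at 1 step in Scr shRNA library 1 and at 0 in the other libraries.

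SCARNA16, an H/ACA RNA of the Cajal body in SNHG20, and SNORA67, in EIF4A1, were the other tested members with the same direction in all pairs. Together with SNORA6 and SNORA5A that makes 2 lower and 2 higher of the 17, where 11.7% and 12.0% of all genes did so. SCARNA16 was at 0, 1.48 and 2.65 FPKM in the ROCK2 KD libraries and at 1.02, 2.50 and 3.31 FPKM in the Scr shRNA libraries, 1 step lower in every pair (0, 1 and 3 against 1, 2 and 4 steps) with overlapping groups. Its log2 fold change was −0.64 (SE 0.19, adjusted p = 0.799 with limma). SNORA67 was at 7.43, 13.8 and 40.1 FPKM in the ROCK2 KD libraries and at 6.01, 11.6 and 11.1 FPKM in the Scr shRNA libraries. Its log2 fold change was 0.74 (SE 0.28, adjusted p = 0.881 with limma). In pairs 1 and 2 SNORA67 had 1 step in all 4 libraries, and its pair differences of 0.27 and 0.25 there came with equal numbers of steps. Only pair 3 differed in steps, with 7 against 2. The hosts of SCARNA16 and SNORA67 rest on RefSeq containment only.

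SNORA57, in METTL12, and SNORA84, in IARS, had an unadjusted p under 0.05 without the same direction in all pairs, and SNORA57 is named after its values were seen. SNORA57 was at 0, 0 and 9.12 FPKM in the ROCK2 KD libraries and at 3.29, 5.52 and 8.74 FPKM in the Scr shRNA libraries, which is 0, 0 and 3 against 1, 1 and 3 steps. Its log2 fold change was −1.63 (SE 0.45, adjusted p = 0.776 with limma), carried by pairs 1 and 2. SNORA84 was at 9.61, 36.8 and 0 FPKM against 0, 15.5 and 0 FPKM, which is 1, 2 and 0 against 0, 1 and 0 steps, with a log2 fold change of 1.64 (SE 0.59, adjusted p = 0.866 with limma). Both groups of SNORA84 were at 0 in library 3.

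SNORA63 and SNORA70 had the highest mean FPKM and no common direction. In steps over the 6 libraries SNORA81 had the most, 22, against 20 for SNORA63 and 13 for SNORA70. SNORA63 was at 8.43, 15.9 and 71.3 FPKM in the ROCK2 KD libraries and at 27.1, 26.7 and 6.33 FPKM in the Scr shRNA libraries, or 1, 1 and 11 against 4, 2 and 1 steps. It was lower in ROCK2 KD in pairs 1 and 2 and higher in pair 3, and its log2 fold change of 0.32 (SE 0.79, adjusted p = 0.997 with limma) became −1.14 without replicate 3. SNORA70 was at 16.9, 15.9 and 6.48 FPKM against 13.5, 13.4 and 38.0 FPKM, or 2, 1 and 1 against 2, 1 and 6 steps. It had the same number of steps in both libraries of pairs 1 and 2, and its log2 fold change of −0.62 (SE 0.48, adjusted p = 0.968 with limma) became 0.27 without replicate 3.

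SNORA9, in SNHG15, and SNORA80B, in ODC1, the gene of ornithine decarboxylase, were also among the members with the highest mean FPKM. SNORA9 was at 9.61, 0 and 29.5 FPKM in the ROCK2 KD libraries and at 0, 15.5 and 7.22 FPKM in the Scr shRNA libraries (1, 0 and 4 against 0, 1 and 1 steps). SNORA80B was at 0, 14.8 and 12.2 FPKM against 0, 0 and 29.7 FPKM (0, 1 and 2 against 0, 0 and 5 steps). Each had libraries at 0 in both groups, and the sign of their log2 fold changes, 0.57 and 0.85, turned when a replicate was left out, to −1.001 for SNORA9 without replicate 1 and −0.63 for SNORA80B without replicate 2.

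Leaving out replicate 3 left 4 genes with an adjusted p under 0.05 of the 10526 tested (0.038%), and all 4 were members: SNORA4, SNORA5A, SNORA34 and SNORA57. In pairs 1 and 2 each of them was at 0 in both libraries of 1 group and at 1 or 2 steps in both libraries of the other. SNORA4 had 2 and 1 steps in ROCK2 KD against 0 and 0, with a log2 fold change of 4.004 (adjusted p = 0.000593 with limma) without replicate 3. In replicate 3 it had 0 steps against 3, and with all pairs the log2 fold change was 1.32 (adjusted p = 0.984 with limma). SNORA34 had 0 and 0 steps against 1 and 1, and 1 against 0 in replicate 3, and its log2 fold change went from −3.28 (adjusted p = 0.000593 with limma) without replicate 3 to −1.31 (adjusted p = 0.971 with limma) with all pairs. SNORA57 had equal steps in replicate 3. SNORA5A, with 2 steps against 1, was the only 1 of the 4 whose replicate 3 had the direction of the other pairs, and its log2 fold change without replicate 3 was 3.81 (adjusted p = 0.000593 with limma).

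The 3 EIF4A2 members did not move together. In steps, SNORA81 had 1, 2 and 4 in ROCK2 KD against 6, 2 and 7 in Scr shRNA, SNORA63 had 1, 1 and 11 against 4, 2 and 1, and SNORA4 had 2, 1 and 0 against 0, 0 and 3. In pair 3 SNORA63 was higher in ROCK2 KD while SNORA81 and SNORA4 were lower, although the 3 lie in neighbouring introns of 1 gene. EIF4A2 was at 167, 189 and 206 FPKM in the ROCK2 KD libraries and at 215, 230 and 202 FPKM in the Scr shRNA libraries, with pair differences of −0.37, −0.26 and −0.02 on the log2 scale. Of the 4 members in TAF1D (SNORA18, SNORA25, SNORA40 and SNORA8), the 4 in SNHG17 (SNORA71A, SNORA71B, SNORA71C and SNORA71D) and the 3 in KANSL2 (SNORA2A, SNORA2B and SNORA34), none had more than 2 steps in a library, and SNORA18, SNORA71A, SNORA71B, SNORA71D and SNORA2A were at 0 throughout.

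Across the 16 tested members with a host, over 14 hosts, the log2 fold change of the member and of the host had a Pearson correlation of 0.01 and a Spearman correlation of 0.10. These are descriptions over members that share libraries and, for 3 of them, the host EIF4A2. For SCARNA9, SCARNA10, SCARNA16, SNORA9 and SNORA67 the host rests on RefSeq containment only, with no check of the strand. Within pairs 1, 2 and 3 the Pearson correlations were 0.04, −0.04 and −0.08. The sign was the same for member and host in 7 of 16 cases, and in 28 of 48 single pair differences. The median absolute log2 fold change was 0.69 for the members and 0.10 for their hosts, the largest host value was 0.21 in size, and none of the 14 had an unadjusted p under 0.05. RPSA, the host of SNORA6, had a log2 fold change of 0.05 and TBRG4, the host of SNORA5A, of −0.10. Over all 65 hosts, 64 were tested, and SNHG7 and SNHG10, both lower in ROCK2 KD, were the 2 past an unadjusted p of 0.05, against 5.47% of all genes. None passed at an adjusted p of 0.05.

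**Figure D4:**
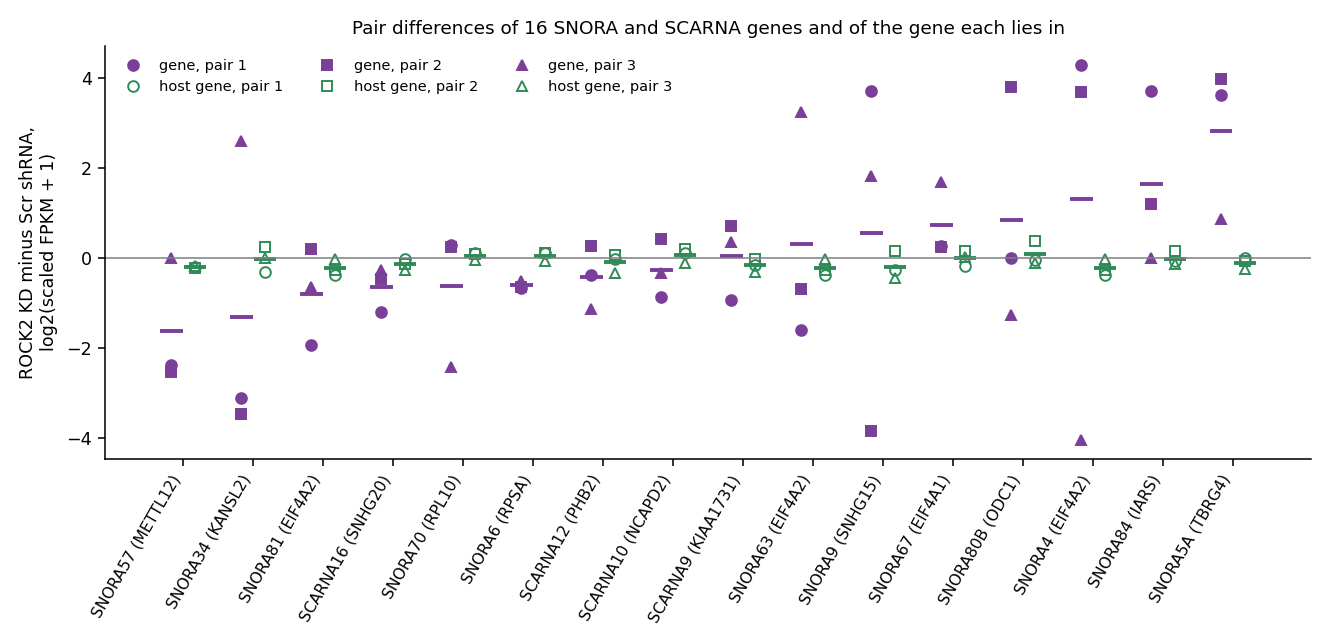
Difference of ROCK2 KD minus Scr shRNA on the log2(scaled FPKM + 1) scale for each of 16 SNORA and SCARNA genes (filled) and for the host gene named in brackets (open), with 1 symbol per pair and a bar at the mean of the 3 pairs. The means over the 3 pairs run from −1.63 to 2.83 for the members and reach 0.21 at most in size for the hosts, and single pair differences run from −4.04 to 4.30 for the members.

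The spread between pairs was wide for the members at every level. The SD of the 3 pair differences had a median of 1.55 over the 17 members, from 0.09 for SNORA6 to 4.66 for SNORA4, against 0.18 over all genes tested. The SD of 12 of the 17 was above 0.85, the 99th percentile of all genes. At a mean of 3 to 10 FPKM the median SD was 1.70 for 9 members and 0.19 for all 3471 genes, and at 10 to 30 FPKM 1.89 for 5 members and 0.18 for all 3014 genes, so members differed from other genes at the same FPKM. By length, the 14 tested members up to 200 bases had a median of 1.74 and the 3 longer ones, SCARNA9, SCARNA10 and SCARNA12, of 0.71. The 17 tested genes of any kind up to 200 bases were 14 members and 3 SNORD genes, and the median over all 10361 genes over 200 bases was 0.18.

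**Figure D5:**
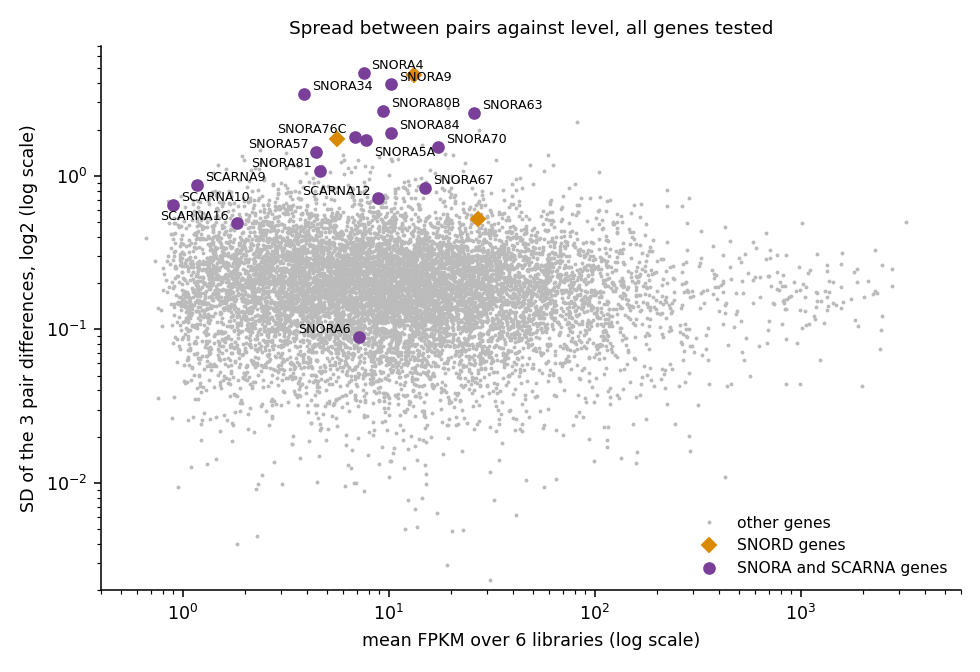
SD of the 3 pair differences (log2, log scale) against mean FPKM over the 6 libraries (log scale) for all genes tested, with SNORA and SCARNA genes and SNORD genes marked. Of the 17 members, 12 lie above 0.85, the 99th percentile of all genes, and SNORA6 is lowest at 0.09.

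The curve for the worth of 1 step was not extended over 204 bases, where most SCARNA genes lie, and these are given in FPKM only. Among those of mixed C/D and H/ACA type, SCARNA12 was at 6.83, 13.1 and 4.01 FPKM in the ROCK2 KD libraries and at 9.001, 10.7 and 9.84 FPKM in the Scr shRNA libraries, and its groups overlapped (log2 fold change −0.41, SE 0.24, adjusted p = 0.955 with limma). SCARNA10, in NCAPD2, was at 0.217, 0.876 and 1.19 FPKM against 1.03, 0.368 and 1.71 FPKM, with a log2 fold change of −0.25 (SE 0.23, adjusted p = 0.976 with limma). SCARNA5 and SCARNA6, both in ATG16L1, were above 0 in 1 library and in 2 libraries, at 0.667 FPKM at most. Among the C/D type, SCARNA9, in KIAA1731, was at 0.948, 1.51 and 1.04 FPKM against 2.53, 0.477 and 0.544 FPKM, with a log2 fold change of 0.05 (SE 0.29, adjusted p = 0.997 with limma). SCARNA9L, a shorter copy in EIF1AX, was at 0.305 FPKM or less and higher in ROCK2 KD in each pair. SCARNA2, SCARNA7 and SCARNA17 did not enter the test and had means of 0.481, 0.504 and 0.466 FPKM. Of the H/ACA type, SCARNA1, SCARNA14, SCARNA15, SCARNA21 and SCARNA22 were at 0 in every library, SCARNA8 was at 8.72 FPKM, 1 step, in Scr shRNA library 1 and at 0 in the others, and SCARNA13 was at 0.572 to 1.35 FPKM in 3 libraries, 2 of them ROCK2 KD. SNORA73A, SNORA73B and 6 further SCARNA genes of the role list were not analysed here.

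SCARNA7 and SCARNA10 have the same annotated length, 330 bases, and their levels varied in a like order over libraries. SCARNA7 was at 0, 0.219 and 1.02 FPKM in ROCK2 KD libraries 1, 2 and 3 and at 0.826, 0.184 and 0.778 FPKM in Scr shRNA libraries 1, 2 and 3, so both were highest in ROCK2 KD library 3 and Scr shRNA libraries 1 and 3. RMRP and RPPH1, the RNAs of RNase MRP and RNase P, which also lack a poly(A) tail and were picked after their values were seen, were high in the same 3 libraries. RMRP was at 5.56, 1.86 and 76.2 FPKM in ROCK2 KD and at 34.4, 7.52 and 72.7 FPKM in Scr shRNA, and RPPH1 at 1.62, 0.611 and 41.6 FPKM against 13.9, 1.37 and 28.1 FPKM. The libraries of ROCK2 KD 3, Scr shRNA 1 and Scr shRNA 3 also had the most steps of the short members, 54, 27 and 44, against 14 to 19 in the other 3. SCARNA12 and SCARNA9 did not follow this order: SCARNA12 was lowest in ROCK2 KD library 3 and highest in ROCK2 KD library 2, and SCARNA9 was highest in Scr shRNA library 1 and next in ROCK2 KD library 2. SCARNA17 and SCARNA2 followed it in part. Both were higher in ROCK2 KD library 1 (0.551 and 0.415 FPKM) than in Scr shRNA library 3 (0.493 and 0.396 FPKM). The part of library preparation in this order was not tested.

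SNORA53, at 250 bases in SLC25A3, did not enter the test and is named after its values were seen. It was at 0 in the 3 ROCK2 KD libraries and at 0.783, 1.16 and 0.604 FPKM in the Scr shRNA libraries, so its groups did not overlap. Tested among all 18785 genes with any value above 0, its log2 fold change was −0.88 (SE 0.09, adjusted p = 0.910 with limma). SNORA58, in MRPL3, was at 0, 1.11 and 0.386 FPKM in ROCK2 KD and at 0 in all Scr shRNA libraries. SNORA24, in SNHG8, was at 0, 21.4 and 16.9 FPKM in ROCK2 KD and at 0 in all Scr shRNA libraries, or 0, 1 and 2 steps against 0. SNORA58 and SNORA24 are also named after their values were seen.

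Genes that make and hold these RNAs were measured with far less spread. All 4 core proteins of the complex were tested, with DKC1 at 29.5, 106 and 76.9 FPKM in ROCK2 KD and 27.8, 92.7 and 90.1 FPKM in Scr shRNA and a log2 fold change of 0.01 (SE 0.12, adjusted p = 0.997 with limma). NHP2, NOP10 and GAR1 were at −0.10, −0.03 and −0.07. The 6 assembly factors, NAF1, SHQ1, RUVBL1, RUVBL2, PIH1D1 and RPAP3, had a median of −0.07, and the 7 proteins of Cajal bodies and SCARNA RNAs, COIL, WRAP53, SMN1, GEMIN2, GEMIN4, GEMIN5 and NOLC1, of 0.02. WRAP53, which brings SCARNA RNAs to Cajal bodies, was at −0.28 (SE 0.12, adjusted p = 0.895 with limma) and SMN1 at 0.25 (SE 0.11, adjusted p = 0.895 with limma). The 6 genes of 3′ end trimming and intron turnover, PARN, PAPD5, TGS1, EXOSC10, DBR1 and XRN2, had a median of 0.05. Of these 23 tested genes, 0 had an adjusted or an unadjusted p under 0.05. TERC, the H/ACA RNA of telomerase, was at 0.615 FPKM or less, and TERT, its protein partner, at 1.33 FPKM or less, and neither was tested. The box C/D core proteins FBL, NOP56, NOP58 and NHP2L1 had a median of 0.01 and no p under 0.05 either.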

How the data were processed

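The 6 libraries were paired-end Nextera libraries from U2932 cells, mapped by the authors to hg19 with STAR and quantified with Cufflinks. The values used were the FPKM that the authors deposited, 1 value for each of 20667 symbols. The depth of each library is not in the tables, and the worth of 1 fragment was inferred for short genes only. Scaling between libraries used trimmed log ratios (0.3 of ratios and 0.05 of levels trimmed), a pseudocount of 1 was added, and genes at 1 FPKM or more in at least 3 of 6 libraries were fitted. The fit was limma 3.58.1 (R 4.3.3) blocked on replicate number, with a trend of variance on level and p-values adjusted by Benjamini-Hochberg at 0.05. The study corrected for replicate number before testing. Same-numbered libraries deviated together (correlation across genes 0.855, 0.785 and 0.742, against −0.65 to 0.06 for different numbers).

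The step curve, whose starting values were chosen on these data, and the fit were tested on simulated data. In 10526 genes, 200 were given a log2 change of 1 or 2, of which limma recovered a median of 57.2% and 92%, and with no change it called 0. These figures are for genes of all kinds. The SD of the pair differences had a median of 0.18 over all genes and 1.55 over the members. Recovery and false calls among the members were not tested. Lengths come from RefSeq, for 95.8% of symbols, positions and sequences from GENCODE 44 on GRCh37, and hosts from both, or from RefSeq alone for 20 members. Named members are the 8 with the highest mean FPKM, those with the same direction in all pairs, the 4 highest among those at 0 in a library, members of hosts with 3 or more, and SCARNA genes by role. A pair difference under 0.005 was given no direction. The members, lists and rules were chosen with earlier results of these data known. Alternatives covered block, ComBat, filter, pseudocount, scaling, trend and replicates. Python 3.11.15 with pandas 2.3.3, numpy 2.4.6, scipy 1.17.1 and matplotlib 3.10.9 was used.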

Additional observations from a re-analysis of the deposited data

How the results depend on the processing

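Among members up to 204 bases 98 of 450 values were above 0, and 82 of these were 1 or 2 steps. With 3 pairs and such values, the data limit what can be said of any member to large and repeated differences. With all 3 pairs and a replicate block, 0 genes and 0 members had an adjusted p under 0.05, and without the replicate block these counts were again 0 and 0. The members with an unadjusted p under 0.05 went from 6 to 2 without the block. The share of all genes past that p was not counted for the fit without the block, so the 2 has no background beside it. ComBat on the replicate number before a fit without the block gave 294 genes (2.79%) and 1 member, SNORA6 (log2 fold change −0.46, adjusted p = 0.0220 with limma). ComBat removed the replicate differences, and the fit after it spent no degrees of freedom on them. Without a filter 52 members were tested and the Pearson correlation with hosts was −0.14. With 1 FPKM required in every library 6 were tested. The correlation was 0.13 with a pseudocount of 0.1, −0.21 with a pseudocount of 10, where the median absolute difference to the host was 0.36 in place of 0.71, and −0.10 over members with a mean of at least 10 FPKM. For the leave-one-out fits the count of genes with an adjusted p under 0.05 ran from 0 to 14, of members from 0 to 4 (4 without replicate 3), of members with an unadjusted p under 0.05 from 6 to 11, and the correlation from −0.37 to 0.12. A fit on 2 pairs leaves 1 residual degree of freedom per gene, and limma pools the spread over genes. For these fits the share of all genes past an unadjusted p of 0.05 was not counted. The 6 to 11 members past it, 11 of them without replicate 2, therefore have no background beside them.

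Of 149 log2 fold changes of 12 named members under the alternatives, 138 kept their direction and side of the threshold. Reversed were SCARNA9 at −0.020 with a pseudocount of 10 and, without 1 replicate, SCARNA9 (−0.29 to 0.54), SCARNA10 (−0.59 to 0.049), SNORA9 (−1.001 to 2.78), SNORA80B (−0.63 to 1.90), SNORA63 (−1.14 to 1.28) and SNORA70 (−1.08 to 0.27). The scaling alternatives changed none of these members' directions. The cause was not tested.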
